A study of Mus musculus with 2 samples.

Results

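The 8 genes described here are a core of the mouse MHC class I antigen presentation pathway, chosen by name: the class I heavy chains H2-K1 and H2-D1, their shared light chain B2m, the peptide transporter subunits Tap1 and Tap2, the loading chaperone Tapbp and the immunoproteasome subunits Psmb8 and Psmb9. All 8 are among the 27998 genes counted in single-cell RNA libraries of telencephalon from C57BL/6 mice at postnatal day 0. There were 2 libraries, 1 labelled WT and 1 labelled STINGf/f;Nestin-Cre (cKO), in which Cre under the Nestin promoter deletes STING, a cytosolic DNA sensing adaptor, in the neural lineage. The study's text also calls the control STING fl/fl, whether WT animals carried the floxed allele or Cre is not given in the labels, and neither is the number of animals per library. With 1 library per genotype no test was run, and every difference below is a difference between 2 libraries whose intervals cover counting error only.

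Nearly every nucleated cell can display peptides from its own proteins on class I molecules, where CD8 T cells read them. The proteasome cuts the peptides, the TAP transporter carries them into the endoplasmic reticulum, and tapasin holds an empty heavy chain and B2m beside TAP until a peptide fits. Cells of the immune system and cells that have met interferon swap in immunoproteasome subunits, while neurons are known for low class I levels, although class I molecules have been studied in developing synapses.

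The libraries held 69554624 UMIs (unique molecular identifiers, each counting 1 captured RNA molecule) in 10715 barcodes for WT and 67448785 in 9198 barcodes for cKO, and 6428 and 5776 cells were kept, with medians of 6483 and 7458.5 UMIs. The libraries shared 19 barcodes, 8 of them among kept cells. Tmem173, the gene encoding STING, had 18 UMIs in the WT and 1 UMI in the cKO neural group, and in the vascular group, where Nestin is also known to be expressed, 41 and 10 (log2 ratio -0.97, -2.13 to 0.05). Over all kept cells Xist counted 10 and 67618 UMIs and the Y-linked Ddx3y 2731 and 0, so sex, genotype and library cannot be told apart. Of the kept cells, 5684 WT and 4916 cKO cells were placed in 3 groups by UMIs of marker genes, at least 3 of 6 markers per class. These were a neural group (5486 WT and 4820 cKO cells), a vascular group of endothelial-like and mural-like cells (157 and 76) and an immune group that was nearly all microglia/macrophage-like (41 and 20). The markers included Neurod2 and Neurod6 for projection neuron-like, Cldn5, Pecam1 and Cdh5 for endothelial-like, Rgs5 and Pdgfrb for mural-like and C1qa, Csf1r and P2ry12 for microglia/macrophage-like cells, and class names rest on them alone. Endothelial, mural and microglial genes not used for placing cells were low in the neural group beside their own classes. There 7 further endothelial genes summed to 75.3 and 36.4 CPM (UMIs of the gene per 1000000 UMIs of the cells, WT and cKO) against 7595 and 8568 CPM in endothelial-like cells. For 7 further microglial genes the sums were 8.56 and 3.69 CPM against 13503 and 15109 CPM in microglia/macrophage-like cells. For 6 further mural and fibroblast genes they were 55.1 and 27.0 CPM against 6709 and 7453 CPM in mural-like cells. Haemoglobin genes were not low in WT neural cells, at 235 CPM against 174 CPM in WT endothelial-like cells, and had 26.0 CPM in cKO neural cells.

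B2m lies on chromosome 2 (122147686 to 122153083, plus strand, GENCODE M21 on GRCm38). The other 7 members lie on chromosome 17 within the MHC, from Tapbp (33915899 to 33929292, plus strand) to H2-D1 (35262730 to 35267499, plus strand). Tap1 (34187553 to 34197225, plus) and Psmb9 (34181987 to 34187764, minus) overlap by 212 bases at their starts, while the RefSeq transcript starts used for the promoter windows lie apart, with 225 bases between them. Psmb8 (34197721 to 34201454, plus) and Tap2 (34203527 to 34216321, plus) follow, and H2-K1 lies at 33996017 to 34000347 on the minus strand. RefSeq promoter windows (GRCm38.p6, 250 bases before to 50 after a transcript start) were given for 7 members, Tap2 being the exception. Upstream sequence is shown for B2m and H2-K1, the light chain and a heavy chain that turned opposite ways between libraries in neural and immune cells, because theirs, as printed, is free of annotated exons. For B2m 1 exon base was left out. For H2-K1 the first of 2 windows is shown, the other holding 14 exon bases. Capitals mark matches to an interferon response element core (ISRE, GAAANNGAAA) or a kappa B core (kB, GGGANNNNCC). A gamma interferon site (GAS, TTCNNNGAA) was sought as well. All searches, here and over all windows, covered both strands of the 250 bases before the start and not the 50 after. Only exact matches to the fixed letters were counted, so unmarked sequence may still hold variants of these elements.
B2m, chr2:122147437-122147685, plus strand, GRCm38.p6: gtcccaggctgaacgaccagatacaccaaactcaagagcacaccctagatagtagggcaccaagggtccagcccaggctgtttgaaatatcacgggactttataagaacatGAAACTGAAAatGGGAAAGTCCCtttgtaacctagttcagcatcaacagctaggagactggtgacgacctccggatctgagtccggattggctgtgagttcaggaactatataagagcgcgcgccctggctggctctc
H2-K1, chr17:34000348-34000597, minus strand, GRCm38.p6: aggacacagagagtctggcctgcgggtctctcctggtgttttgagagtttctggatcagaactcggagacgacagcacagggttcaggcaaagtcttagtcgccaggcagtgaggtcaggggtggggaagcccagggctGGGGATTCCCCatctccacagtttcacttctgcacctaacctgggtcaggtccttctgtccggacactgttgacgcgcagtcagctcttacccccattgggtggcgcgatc
In B2m the ISRE match and the kB matches, which overlap each other, stood 2 bases apart. The kB letters of H2-K1, GGGGATTCCCC, were also found in the H2-D1 window, where they lie inside an annotated exon at chr17:35262923-35262933. A GAS match was found in the Psmb8 window and none of the 3 motifs in those of Tap1, Tapbp and Psmb9. In the windows of H2-D1, Psmb8, Tap1, Tapbp and Psmb9 all 250 bases searched lie in annotated exons, the Psmb8 match included. The ISRE core was present in 2.98% of all 32851 windows, the kB core in 17.6% and the GAS core in 7.02%, so that a match describes letters and not a site in use.

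Across the cell groups, class I transcripts had higher levels in vascular and immune cells than in neural cells, H2-D1 included. The 8 members summed to 93.5 CPM (95% exact Poisson interval 90.8 to 96.4) in the WT neural group, 918 CPM (877 to 961) in the vascular group and 1876 CPM (1735 to 2026) in the immune group. In cKO the sums were 104 (101 to 107), 877 (819 to 938) and 2491 CPM (2282 to 2715). The order neural, vascular, immune was thus the same in both libraries, and no pair of intervals within a library overlapped. The vascular level was 9.81-fold the neural level in WT (9.29 to 10.4) and 8.44-fold in cKO (7.84 to 9.08), and the immune level was 20.1-fold (18.4 to 21.8) and 24-fold (21.9 to 26.2).

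Of the 6 members with enough UMIs for the comparison (at least 20 in the sums compared), 5 were at least 4-fold higher in the vascular than in the neural group in both libraries, where 8.2% of 13797 genes tested were. These were B2m, H2-K1, H2-D1, Tap1 and Tap2, while Tapbp reached 3.64-fold in WT and 2.50-fold in cKO. In the immune group all 7 members tested were at least 4-fold over neural in both libraries, against 4.96% of 13637 genes. Psmb8, with 8 and 17 neural UMIs, entered this comparison only through its immune UMIs, so its place among the 7 is no support, and the other 6 had at least 43 neural UMIs in each library. The 8th member, Psmb9, had 18 and 5 UMIs in the immune group against 11 and 8 in the far larger neural group, and was 219-fold and 139-fold higher, with intervals of 98.1 to 514 and 35.8 to 482. The median log2 ratio of the members tested was 3.47 in WT and 2.88 in cKO for vascular over neural, beside -0.31 and -0.36 over all genes. A stricter filter on cells (at least 1000 genes and at most 5% mitochondrial UMIs, leaving 49 and 8 vascular and 4 and 3 immune cells) took some members under 4-fold, a log2 ratio of 2. These were H2-K1 (1.49) and Tap2 (1.62) for vascular over neural in cKO, and for immune over neural H2-K1 (1.58 in WT, 1.21 in cKO) and Tapbp (0.42 and 0.97). Tap1 had 0 UMIs under this filter in cKO vascular cells and in immune cells of both libraries, so it did not reach 4-fold there.

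B2m, the light chain shared by the class I heavy chains, spanned a wider range across classes than H2-K1, H2-D1 or Tapbp. Its level was 3.88 CPM in WT and 3.98 CPM in cKO projection neuron-like cells (98 and 115 UMIs) and 5.42 and 3.21 CPM in GABAergic neuron-like cells. Cycling progenitor-like cells had 27.0 and 20.6 CPM, radial glia/astrocyte-like cells 27.5 and 20.9 CPM, and oligodendrocyte precursor (OPC)-like cells 58.4 and 62.8 CPM. Neurons were therefore the lowest classes in both libraries and OPC-like cells the highest of the well-counted neural classes. Endothelial-like cells had 225 and 245 CPM, mural-like cells 185 and 181 CPM, and microglia/macrophage-like cells 1033 and 1550 CPM. Neighbours in this order whose intervals overlapped within each library were the neuron classes with each other, the Cajal-Retzius-like with the intermediate progenitor-like cells, the intermediate progenitor-like with the cycling progenitor-like cells, these with the radial glia/astrocyte-like cells, and the endothelial with the mural-like cells.

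**Figure D1:**
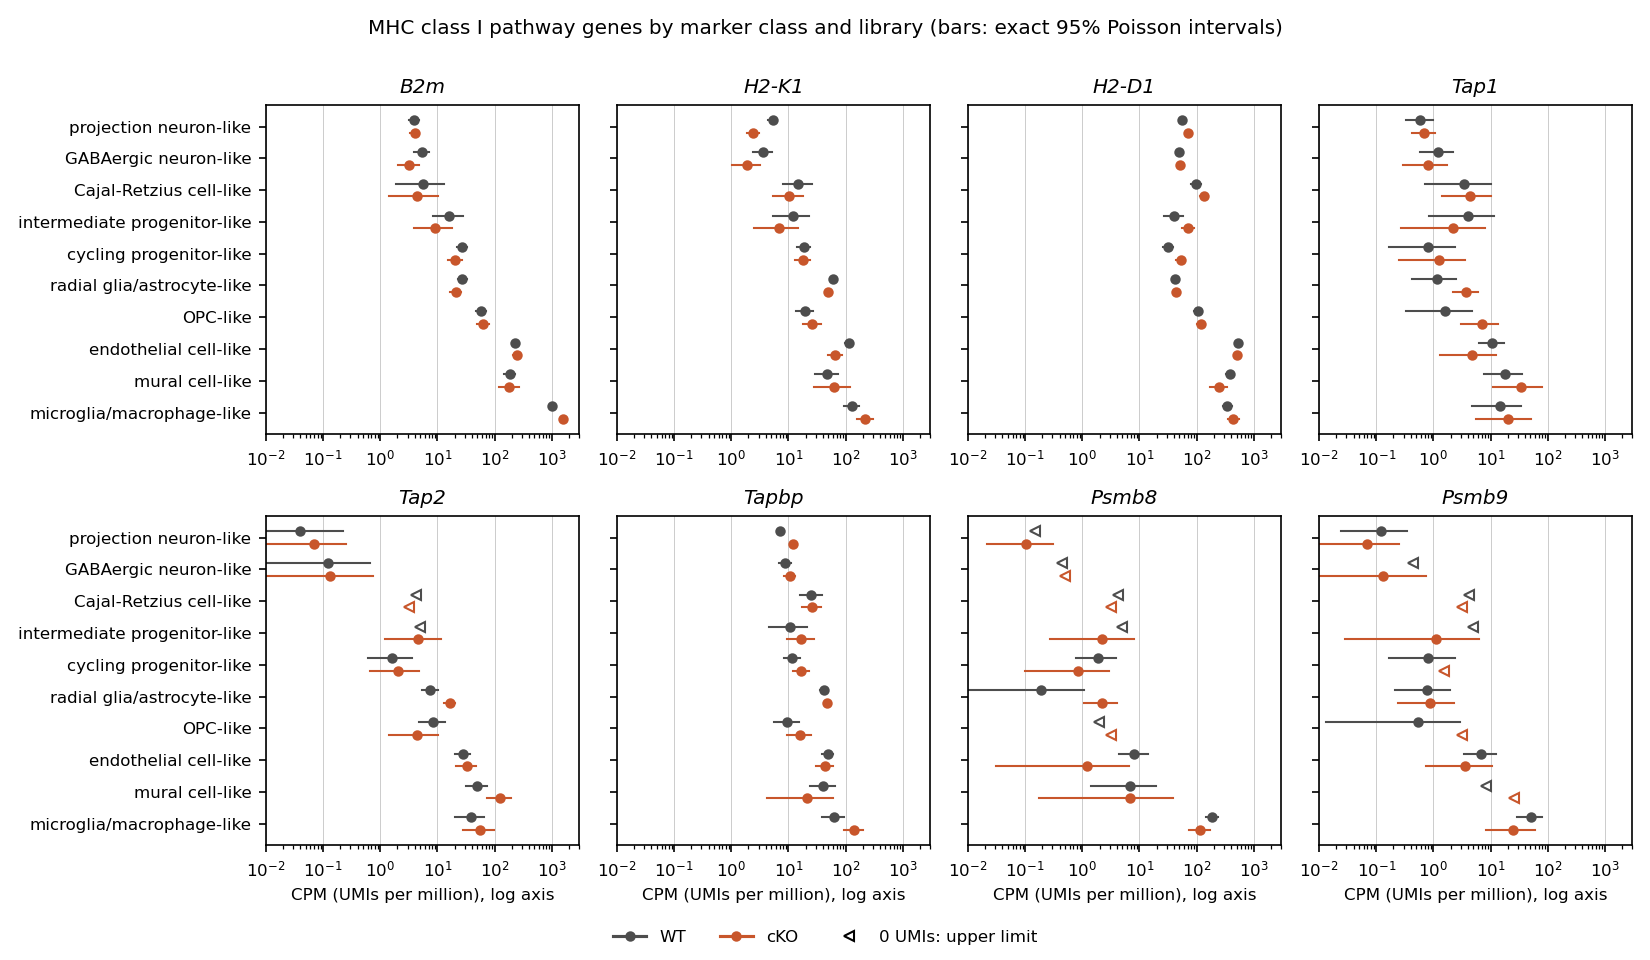
CPM of each member (log axis, 1 panel per gene) in 10 marker classes, with WT in grey and cKO in orange, lines giving exact 95% Poisson intervals (cut at the left edge of the axis) and open triangles the upper limit where a class had 0 UMIs. B2m climbs from 3.88 CPM in WT projection neuron-like cells to 1033 CPM in microglia/macrophage-like cells, whereas H2-D1 stays at 31.6 CPM or above in every class shown.

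H2-D1 and H2-K1 encode the classical heavy chains that bind the peptide, and they were distributed differently. H2-D1 was detected in every neural class shown, at 56.1 CPM in WT and 71.8 CPM in cKO projection neuron-like cells (1416 and 2076 UMIs), 50.0 and 51.5 CPM in GABAergic neuron-like cells, and 98.1 and 134 CPM in Cajal-Retzius-like cells, which guide cortical layering. Radial glia/astrocyte-like cells, at 42.1 and 44.2 CPM, did not exceed the neurons. H2-K1 had the opposite order, with 59.7 and 50.0 CPM in radial glia/astrocyte-like cells and only 5.31 and 2.39 CPM in projection neuron-like cells. The ratio of radial glia/astrocyte-like over projection neuron-like cells was accordingly 11.2-fold in WT (9.16 to 13.9) and 20.9-fold in cKO (15.9 to 27.9) for H2-K1, but 0.750-fold (0.647 to 0.865) and 0.616-fold (0.530 to 0.713) for H2-D1. H2-D1 stood at 529 and 516 CPM in endothelial-like cells and at 346 and 439 CPM in microglia/macrophage-like cells, with intervals that overlapped in cKO. The 2 granulocyte-like cells of each library had 1189 CPM (593 to 2127) and 1044 CPM (539 to 1824), from 11 and 12 UMIs. H2-K1 reached 114 and 66.0 CPM in endothelial-like and 130 and 222 CPM in microglia/macrophage-like cells, with intervals that overlapped in WT only.

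The balance between heavy and light chain transcripts therefore depended on the cell class. UMIs cannot be compared between genes without regard to length and capture, but the same pair can be followed across classes. Projection neuron-like cells held 14.4 H2-D1 UMIs for each B2m UMI in WT (11.8 to 17.9) and 18.1 in cKO (15 to 22). The figure was 2.35 (2.07 to 2.66) and 2.11 (1.78 to 2.50) in endothelial-like cells, and 0.335 (0.270 to 0.414) and 0.283 (0.221 to 0.361) in microglia/macrophage-like cells. Neurons thus stood at the high and microglia at the low end in both libraries, with endothelial, mural, OPC and radial glia/astrocyte-like cells between 1.35 and 2.35. For H2-D1 over H2-K1 the neurons again stood high, with 10.6 in WT (8.85 to 12.7) and 30.1 in cKO (23.7 to 38.8) in projection neuron-like cells, but the lowest class was the radial glia/astrocyte-like one, with 0.704 (0.590 to 0.840) and 0.884 (0.727 to 1.08). H2-D1 and H2-K1 share a transcript stretch of 95.2% identity, and each also has stretches of at least 95% identity with H2-Q7, H2-T22 and Gm8909, so reads from such stretches could be split or dropped and the split between them is uncertain.

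**Figure D2:**
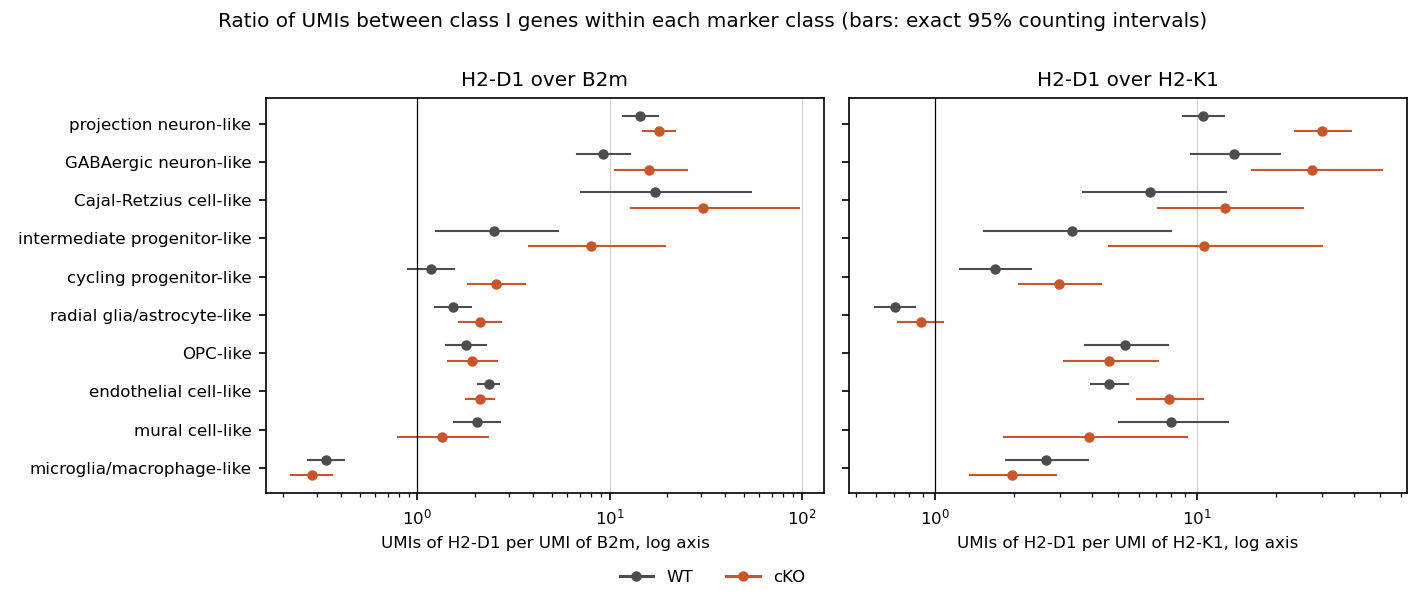
UMIs of H2-D1 per UMI of B2m (left) and per UMI of H2-K1 (right) in 10 marker classes, on log axes, with WT in grey, cKO in orange and exact 95% counting intervals as bars. H2-D1 over B2m is highest in neuron classes and lowest in microglia/macrophage-like cells (0.335 in WT and 0.283 in cKO), while H2-D1 over H2-K1 is lowest in radial glia/astrocyte-like cells.

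The peptide transporter genes were scarce in projection neuron-like cells, and Tap2 was the more confined of them. Tap2 had 1 UMI in 2547 WT and 2 UMIs in 2656 cKO projection neuron-like cells, against 39 and 74 UMIs in radial glia/astrocyte-like cells (7.49 and 16.4 CPM). Its vascular level was 32.8 CPM (25.4 to 41.6) in the WT library and 46.0 CPM (33.6 to 61.6) in the other, and mural-like cells, at 49.7 and 125 CPM, exceeded endothelial-like cells, at 28.1 and 32.4 CPM. That difference between the vascular classes was 0.82 on the log2 scale in WT (0.02 to 1.59) and 1.95 in cKO (1.00 to 2.86). Tap1 was counted at 0.925 and 1.31 CPM in neural, 12.2 and 9.21 CPM in vascular and 14.4 and 19.1 CPM in immune cells, the last from 5 and 4 UMIs. Its vascular and immune intervals overlapped in both libraries.

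Tapbp, the gene of tapasin, differed least between vascular and neural cells of the 6 members tested. It had 7.21 and 11.8 CPM in projection neuron-like cells, 41.5 and 47.3 CPM in radial glia/astrocyte-like cells, 49.3 and 43.2 CPM in endothelial-like cells and 62.2 and 141 CPM in microglia/macrophage-like cells. Ependymal-like cells, 38 in WT and 8 in cKO, had 75.6 CPM (54.9 to 102) and 51.3 CPM (22.1 to 101) of Tapbp. The neural level was 26.4% of the endothelial-like level in WT and 37.0% in cKO, the highest share of any member with at least 20 UMIs in both endothelial-like samples. Tapbp overlaps Zbtb22 on the same strand over 3422 bases. Zbtb22 had 1196 and 1827 UMIs in neural cells, above the 605 and 745 UMIs of Tapbp, and whether reads of the shared part were kept for either gene is not given in the sources used here.

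Psmb8 and Psmb9 replace constitutive subunits in the immunoproteasome, and among the 3 cell groups their levels were highest in immune cells. Of all Psmb8 UMIs in kept cells, 64 of 139 in WT and 23 of 79 in cKO were in the immune group, and 43 and 37 were in cells meeting markers of more than 1 group. For Psmb9 the immune group held 18 of 53 and 5 of 24. Psmb8 reached 184 CPM (142 to 236) in the WT immune group and 110 CPM (69.6 to 165) in that of cKO, against 7.82 and 2.05 CPM in vascular cells. In the neural group it had 8 UMIs in 5486 WT cells and 17 UMIs in 4820 cKO cells, or 0.172 and 0.364 CPM. Projection neuron-like cells had 0 Psmb8 UMIs in WT (upper limit 0.146 CPM) and 3 in cKO. Psmb9 followed with 51.9 CPM (30.7 to 82.0) and 23.9 CPM (7.75 to 55.7) in immune cells, 5.38 and 3.07 CPM in vascular cells, and 11 and 8 UMIs in all neural cells. The constitutive subunits Psmb5, Psmb6 and Psmb7 showed no such pattern. None of the 3 was 4-fold higher in vascular or immune than in neural cells, and Psmb5 had 335 and 322 CPM in neural and 207 and 220 CPM in immune cells.

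Because droplets can carry RNA released by other cells, the neural level of each member was set against the level of genes that mark endothelial or microglial cells. The neural level of the 7 further endothelial genes was between 0.00592% and 2.39% of their endothelial-like level over both libraries. The upper end is Slco1c1 in WT, a transporter gene known in astrocytes as well, and the other 6 genes stood at 1.04% or below. B2m stood at 4.95% in WT (4.32 to 5.67) and 3.29% in cKO (2.77 to 3.92), H2-K1 at 11.5% and 13.0%, and H2-D1 at 10.1% and 13.1%, all above that range. Relative to microglia/macrophage-like cells, where the further microglial genes stood between 0.00245% and 0.781%, H2-D1 was at 15.4% in both libraries, B2m at 1.08% and 0.520%, and Psmb8 at 0.0922% and 0.314%. In projection neuron-like cells alone, B2m was at 1.72% and 1.63% of the endothelial-like level, where the further endothelial genes were at 0.662% or below, and at 0.376% and 0.257% of the microglial level, where Aif1 was at 0.601% and 1.10% and the other 6 at or below 0.0253%. Against microglia, the neural Psmb8 values and the neuronal B2m values thus lay above 6 of the 7 comparison genes and below Aif1, whereas the H2-D1 values lay above all 7. The place of Psmb8 was not resolved by its counts. Its interval in WT (0.0382 to 0.193) overlapped those of Laptm5, Fcer1g, Tyrobp and Ctss, and its interval in cKO (0.157 to 0.614) overlapped that of Aif1.

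**Figure D3:**
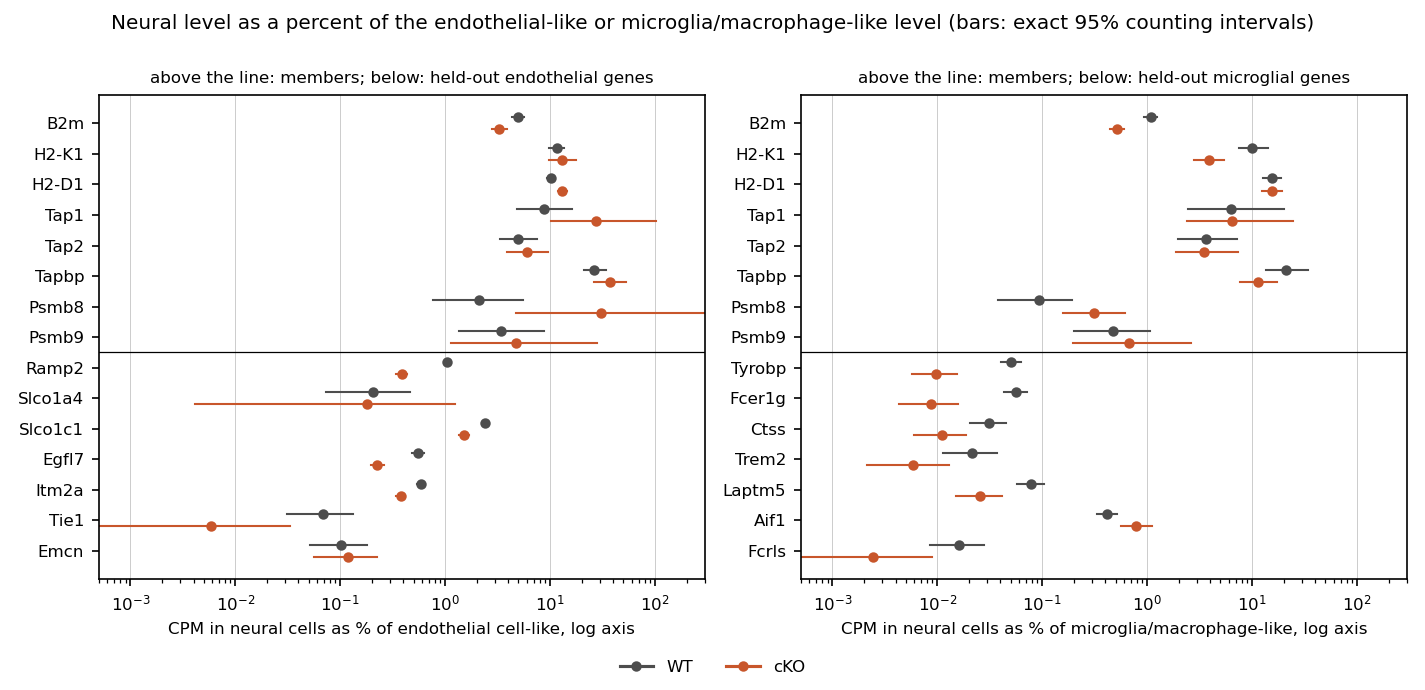
CPM in the neural group as a percent of the CPM in endothelial-like cells (left) or microglia/macrophage-like cells (right), on log axes, for the 8 members above the line and 7 genes of the reference cell type below it, with WT in grey, cKO in orange and exact 95% counting intervals (cut at the axis edges). H2-D1 (10.1% and 13.1% of the endothelial-like level) lies above every comparison gene. In the right panel the Psmb8 values lie below Aif1 and above the other 6 microglial genes. Their intervals overlap those of some of these 6 genes in WT and that of Aif1 in cKO.

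Cell by cell, several members were detected per microglia/macrophage-like or endothelial-like cell and few per neuron-like cell. The median number of members with a UMI was 5 in microglia/macrophage-like cells of both libraries, 3 in endothelial-like cells of both, and 0 in WT and 1 in cKO projection neuron-like cells. Every microglia/macrophage-like cell had at least 1 member. Both H2-D1 and B2m were seen in 85 of 116 WT endothelial-like cells, and 20 had H2-D1 alone, 5 B2m alone and 6 neither. In WT projection neuron-like cells 47 of 2547 had both, 884 H2-D1 alone, 41 B2m alone and 1575 neither, and in cKO the counts were 64, 1212, 27 and 1353 of 2656. These counts depend on depth. With each cell thinned to 1000 UMIs, the expected share of cells with any member was 8.64% in WT (Clopper-Pearson interval 7.91 to 9.42) and 10.0% in cKO (9.18 to 10.9) for the neural group, 56.8% (48.9 to 64.9) and 52.9% (41.4 to 65.0) for the vascular group, and 84.6% (70.8 to 94.4) and 90.0% (68.3 to 98.8) for the immune group. Without thinning the neural shares were 44.8% and 53.7% at median depths of 6794.5 and 7911 UMIs. No cell class lacks H2-D1 or B2m by definition, and no background share of cells was computed to stand beside these.

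Between the libraries, the neural members differed by less than 2-fold, apart from the sparse Psmb8, and not all in the same direction. H2-D1 was higher in cKO neural cells, at 67.5 against 53.5 CPM (log2 ratio 0.34, 0.26 to 0.41), and Tapbp at 16.0 against 13.0 CPM (0.30, 0.14 to 0.45). Zbtb22, which overlaps Tapbp on the same strand, had 1827 against 1196 UMIs there, and its part in the Tapbp value was not tested. B2m was lower, at 8.06 against 11.1 CPM (-0.47, -0.66 to -0.27), and so was H2-K1, at 8.57 against 13.2 CPM (-0.62, -0.80 to -0.43). Of 7 members tested, 1 was at least 2-fold higher, where 3.54% of all 15261 genes were, and 0 were at least 2-fold lower, where 19.7% were. The member past the fold was Psmb8, whose 8 and 17 UMIs gave a log2 ratio of 1.08 with an interval from -0.21 to 2.50. The median ratio of all neural genes was -0.23, that of the tested members 0.34, and with TMM factors, which set the neural ratios against a shift of -0.24 between the libraries, H2-D1 stood at 0.57, H2-K1 at -0.38 and B2m at -0.23.

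The make-up of the neural group entered these sums. Projection neuron-like cells, low in B2m and H2-K1, were 39.6% of kept WT cells and 46.0% of kept cKO cells, and radial glia/astrocyte-like cells were 10.7% and 8.93%. When the cKO classes were weighted as in WT, the ratio of B2m was -0.14 and that of H2-K1 -0.39, while H2-D1 stayed at 0.31. With the stricter filter on cells the H2-K1 interval included 0 (-0.23, -0.49 to 0.02). RNA of genes listed for other cell types was also lower in cKO neural cells. The further endothelial genes stood at 36.4 against 75.3 CPM, the microglial genes at 3.69 against 8.56 CPM and 5 haemoglobin genes at 26.0 against 235 CPM. Slco1c1, known in astrocytes as well, gave 554 of 1696 cKO and 1523 of 3502 WT neural UMIs of the endothelial genes. The part of RNA from other cells in the B2m and H2-K1 values was not tested. Among single classes, B2m in GABAergic neuron-like cells was lower in cKO (24 against 45 UMIs, log2 ratio -0.76, -1.53 to -0.01), and in ependymal-like cells it was higher from few UMIs (8 against 6, log2 ratio 2.31, 0.60 to 4.12). Within projection neuron-like cells B2m did not differ beyond its counting interval (0.04, -0.37 to 0.44), H2-K1 was 2.22-fold lower in cKO (-1.15, -1.59 to -0.72) and H2-D1 was 1.28-fold higher (0.36, 0.26 to 0.45). Tapbp was 1.64-fold higher there (0.71, 0.45 to 0.98), where the part of the overlapping Zbtb22 was not tested either. H2-D1 was also higher in cKO Cajal-Retzius-like cells (0.45, 0.06 to 0.84), in cycling progenitor-like cells, at 52.7 against 31.6 CPM (0.74, 0.36 to 1.11), and in intermediate progenitor-like cells, at 71.8 against 39.9 CPM (0.85, 0.20 to 1.52). Its intervals included 0 in GABAergic neuron-like (0.04, -0.16 to 0.25), radial glia/astrocyte-like (0.07, -0.21 to 0.36) and OPC-like cells (0.21, -0.11 to 0.53). In radial glia/astrocyte-like cells Tap2 was 2.20-fold higher in cKO (74 against 39 UMIs, log2 ratio 1.13, 0.56 to 1.73), Tap1 had 17 against 6 UMIs and Psmb8 10 against 1, while the B2m and H2-K1 ratios were -0.39 and -0.26, with intervals that just excluded 0.

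**Figure D4:**
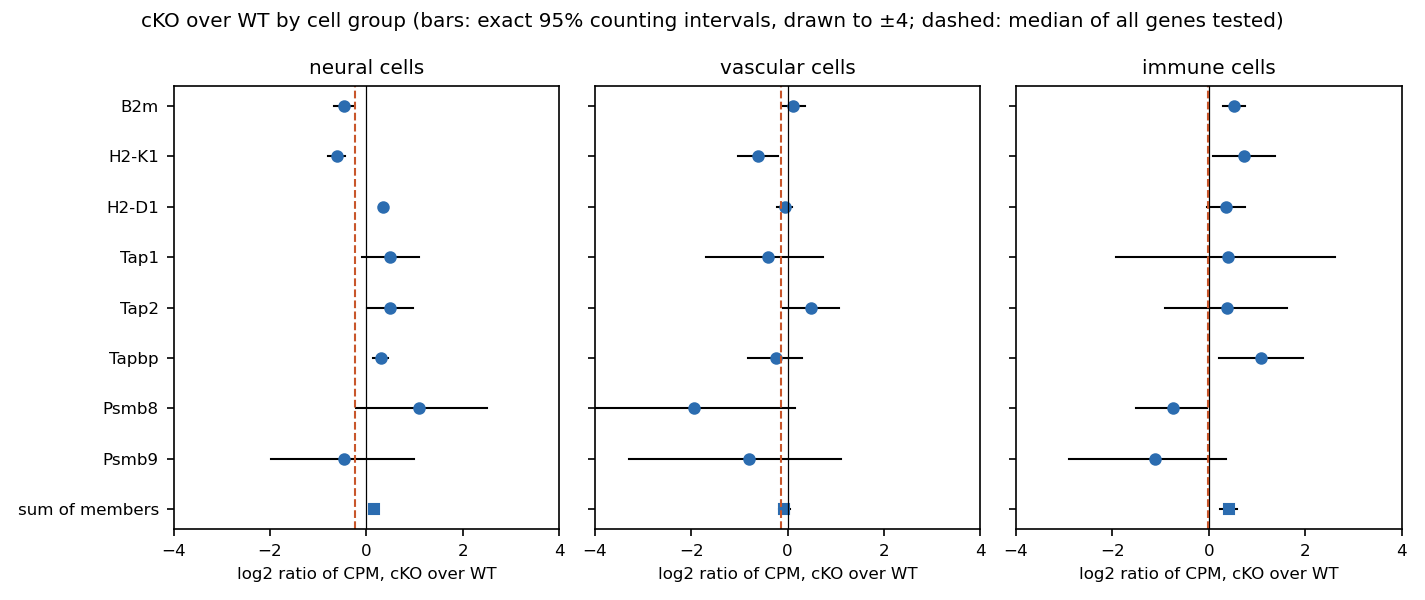
Log2 ratio of CPM, cKO over WT, for each member and their sum in the neural, vascular and immune groups, with exact 95% counting intervals drawn to 4 units on either side and a dashed line at the median of all genes tested. B2m and H2-K1 lie left of 0 in neural cells (-0.47 and -0.62) and right of 0 in immune cells (0.52 and 0.73), and only H2-K1 has an interval off 0 in vascular cells.

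In the vascular group the libraries were close. The member sums were 918 CPM in WT and 877 CPM in cKO (log2 ratio -0.07, -0.18 to 0.05), B2m was at 217 and 235 CPM (0.12, -0.12 to 0.35) and H2-D1 at 496 and 476 CPM (-0.06, -0.22 to 0.10). H2-K1 was lower in cKO, at 65.5 against 99.7 CPM (-0.61, -1.04 to -0.20), and within endothelial-like cells at 66.0 against 114 CPM (-0.79, -1.25 to -0.35). Psmb8 had 13 UMIs in 116 WT and 1 UMI in 54 cKO endothelial-like cells. In mural-like cells H2-D1 was lower in cKO (243 against 377 CPM, log2 ratio -0.63, -1.20 to -0.10) and Tap2 higher (1.33, 0.35 to 2.30). None of the 6 members tested was past 2-fold in either direction, beside 4.92% of 9294 genes higher and 16.9% lower. Mural-like cells of WT also held 19145 CPM of haemoglobin RNA against 6.95 CPM in cKO, and 4499 against 1521 CPM of the further endothelial genes, and endothelial-like cells held 174 against 5789 CPM of haemoglobin RNA. The part of those differences in the vascular values was not tested.

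In the immune group B2m, H2-K1 and Tapbp were higher in cKO, and Psmb8 was lower with an interval that excluded 0 only when granulocyte-like cells were counted in. B2m had 1470 CPM in cKO against 1026 CPM in WT (log2 ratio 0.52, 0.29 to 0.74), H2-K1 210 against 127 CPM (0.73, 0.09 to 1.36) and Tapbp 134 against 63.4 CPM (1.08, 0.22 to 1.95). H2-D1, at 472 against 369 CPM, had an interval that included 0 (-0.04 to 0.75). Psmb8 had 23 UMIs in cKO and 64 in WT (-0.75, -1.50 to -0.04), but in microglia/macrophage-like cells alone, with 23 and 63 UMIs, the interval included 0 (-0.68, -1.44 to 0.03). In cells meeting markers of more than 1 group, which are outside the immune group, Psmb8 was instead higher in cKO. It had 49.8 against 29.7 CPM there (0.75, 0.07 to 1.41). Granulocyte markers summed to 9034 CPM in the WT and 1083 CPM in the cKO immune group, and their part in the immune values was not tested. The H2-K1 ratio turned to -0.60 under the stricter filter, which left 4 WT and 3 cKO cells. The interval of Psmb9, from 5 and 18 UMIs, included 0 (-1.12, -2.90 to 0.36). Of 7 members tested, 1 was at least 2-fold higher (Tapbp), beside 8.28% of 3757 genes, and 1 at least 2-fold lower (Psmb9), beside 12.7%. Per cell, B2m ranged from 0 to 30 UMIs with a median of 8 in WT and from 5 to 31 with a median of 16 in cKO microglia/macrophage-like cells, whose median depths were 8948 and 11884.5 UMIs, so that the ranges overlapped. These values rest on 41 and 20 cells. Without the cell with the most B2m UMIs, the microglia/macrophage-like levels were 989 and 1491 CPM. The further microglial genes, at 13503 and 15109 CPM, were also higher in the cKO cells, and the depth and that level were not separated from the B2m difference.

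Genes around the members were described from lists of the pathway, whose counts over neural cells stand against 8.2% of all genes for vascular and 4.96% for immune cells. Of other class I and class I-like heavy chains, 7 of 10 tested were at least 4-fold higher in vascular than in neural cells in both libraries, among them H2-T22, H2-M3 and Fcgrt, the neonatal Fc receptor that pairs with B2m, at 229 and 191 CPM in vascular against 1.61 and 3.13 CPM in neural cells. In immune cells 6 of 10 were. Of peptide supply and loading partners only Erap1, an aminopeptidase that trims peptides, passed in vascular cells (1 of 9), joined by Tapbpl in immune cells (2 of 9). Of class I regulators 6 of 9 passed in vascular cells (such as Irf1 and Irf2) and 2 of 10 in immune cells (Irf1 and Irf8). Interferon receptors and interferon-induced genes passed in 10 of 13 cases in vascular cells, such as Ifitm3 with 402 and 284 CPM against 13.5 and 6.86 CPM in neural cells, and in 6 of 11 in immune cells. Of class II genes, which mark professional antigen presenting cells, 0 of 2 passed in vascular and 2 of 2 in immune cells, where H2-Ab1 had 8 and 2 UMIs and H2-DMa 12 and 11.

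Between the libraries, genes past 2-fold were lower in cKO more often than higher over all genes, so the counts of these lists are to be read against the shares over all genes. The vascular counts below stand against 16.9% of all genes lower and 4.92% higher. In vascular cells 1 of 8 other heavy chains was at least 2-fold higher in cKO (H2-T23, 14 against 10 UMIs) and 0 lower, with a list median of 0.11. Of 9 loading partners 0 were higher and 2 lower: Calr, a chaperone of heavy chain folding, at 276 against 664 CPM (log2 ratio -1.27, -1.46 to -1.08), and Tapbpl, a tapasin relative, with 0 UMIs in cKO against 26 in WT, at least 4.14-fold lower when 3 UMIs over the cKO group are taken as the floor. Irf2, a transcription factor acting on interferon response elements, was lower in vascular (16.4 against 79.7 CPM, log2 ratio -2.28, -3.12 to -1.54), immune (1 against 21 UMIs) and neural cells (2.06 against 11.7 CPM, log2 ratio -2.50, -2.83 to -2.19). Of 18 interferon genes tested in vascular cells 4 were at least 2-fold lower, among them Oasl2 (2 against 43 UMIs), Igtp (4 against 27) and Irf7 (4 against 24), and 1 was higher. In immune cells Calr was also lower (391 against 821 CPM), and 0 of 9 interferon genes passed in either direction, beside 8.28% of all genes higher and 12.7% lower. In neural cells 5 of 16 interferon genes were lower and 0 higher, and 4 of 10 regulators were lower and 0 higher, beside the 19.7% and 3.54% of all genes. The list medians in cKO over WT were -0.89 for interferon genes in neural, -0.34 in vascular and 0.31 in immune cells, next to the members' medians of 0.34, -0.16 and 0.38. Over all genes tested the medians were -0.23, -0.13 and -0.01. In the vascular group the further mural genes Higd1b (203 against 554 CPM), Ndufa4l2 (170 against 358 CPM) and Mgp (25.6 against 61.6 CPM) and the endothelial Slco1a4 (10.2 against 60.6 CPM) were lower in cKO as well, and the microglial Aif1 was lower in the immune group (267 against 674 CPM).

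The genes whose levels followed B2m most closely across 9 classes and both libraries (18 points, log2 of CPM + 10, 13080 genes with at least 100 UMIs, members and markers left out) were Plod1 (Pearson's r = 0.979), Snx9 (0.976), Kctd12b (0.970), Tjp1 (0.965) and Zyx (0.965). For the sum of the 8 members they were Lipa (0.961), Cr1l (0.958), Tram2 (0.955), Vangl1 (0.952) and Itm2a (0.951). The points share libraries and depth, and 2 libraries of a class are not independent classes. Microglia/macrophage-like cells, 18 in cKO, fell under the 20 cells required. With at least 10 cells, which admits them (10 classes, 20 points), the genes nearest to B2m were instead Arpc1b (0.976), Rhog (0.971), Ifngr1 (0.970), Tram1 (0.969) and Syngr2 (0.967), an alternative chosen after seeing the data. The genes nearest to the sum changed as well, to Lyn (0.964), Serinc3 (0.963), Vamp8 (0.962), Arpc1b (0.961) and Hmox1 (0.956). Among the members themselves, r with B2m over the 9 classes ran from 0.561 for Psmb9 and 0.566 for Tapbp to 0.860 for H2-K1 and 0.863 for Tap2. Psmb9 and Psmb8, with 33 and 43 UMIs over these cells, fell under the 100 UMIs required of the other genes. The level of Psmb9 did not exceed 6.86 CPM in any of these classes, below the 10 added before the logarithm.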

How the data were processed

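The authors deposited for each of 2 libraries (1 WT, 1 cKO) a matrix of raw UMI counts per gene and barcode, whole numbers with no normalization. Per the file headers it was written by Cell Ranger 3.0.1, whereas the submitters' processing notes name Cell Ranger 2, STAR, Seurat and mm9. Whether counting used strand is not given in the sources used here, which matters for B2m, lying within Patl2 of the opposite strand (at most 1 Patl2 UMI per cell group and library). A matrix pooling both libraries, tables of UMI and gene totals per barcode, tables repeating the counts, and a table of the authors' own comparison (fold changes and their p-values per cluster) were not used.

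Cells with at least 500 genes and at most 10% mitochondrial UMIs were kept (35.9% of WT and 32.9% of cKO barcodes were above that share). Scrublet in scanpy 1.11.5 called 165 doublets in WT and 0 in cKO at its automatic threshold, so the 5% of cells with the highest scores were left out in each library (338 and 304), a choice made after seeing that result. Cells meeting classes of more than 1 group (48 WT, 28 cKO) or of no class (693 and 830) stayed outside the groups, as did erythroid-like cells (3 and 2). Counts were summed per class and given as CPM with exact 95% Poisson intervals. Ratios carry exact conditional binomial intervals and shares Clopper-Pearson intervals, taken at the nearest whole number of cells where the share is the exact expectation after thinning to 1000 UMIs. With 1 library per group no p-value was computed. The calculations were checked on simulated counts. Members are named throughout. Genes of other lists are named by a fixed rule: past 2-fold in vascular or immune cells with at least 20 UMIs in either library, at most 3 per direction. Examples given beside the counts of genes over neural cells, and the H2-Ab1, H2-DMa and H2-T23 values, were chosen after their values were seen. The members and lists were chosen with earlier results of these data known. Coordinates are those of GENCODE M21 (GRCm38), which held 27645 of the 27998 gene identifiers. Promoter sequences are RefSeq's. Near-identical stretches were sought with BLAST 2.17.0. H2-K2 and H2-T10 were not found among the gene names and not analysed here.

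The alternatives took all barcodes, or a stricter filter (1000 genes, 5% mitochondrial), kept doublets, asked for 2 or 4 of 6 markers, placed cells of several groups by most markers, dropped haemoglobin, ribosomal protein and mitochondrial genes from CPM, averaged CPM over cells, or used TMM factors (edgeR 4.0.16, R 4.3.3, scaling alone), thinning to 2000 UMIs or none, and, added after seeing the data, Scrublet's automatic threshold and WT weights of neural classes.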

Additional observations from a re-analysis of the deposited data

Results flagged for a closer look

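B2m differed in opposite directions between the libraries in different cells, with a log2 ratio of cKO over WT of 0.52 in immune cells and -0.47 in neural cells, and so did H2-K1, at 0.73 in immune, -0.62 in neural and -0.61 in vascular cells. With the stricter filter on cells, which left 4 WT and 3 cKO immune cells, the immune H2-K1 ratio was -0.60, so that its direction was no longer opposite. The difference between cell groups was not tested, since each group has 1 library per genotype, and each side's counting interval excluded 0. With neural classes weighted as in WT the neural values were -0.14 for B2m and -0.39 for H2-K1.

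Some cells outside the 3 groups also carried the members, while the 3 WT and 2 cKO erythroid-like cells had 0 UMIs of them. Cells meeting markers of more than 1 group had 918 CPM of the 8 members in WT and 1025 CPM in cKO at median depths of 19805.5 and 18416.5 UMIs, and cells meeting no class had 106.5 and 100.2 CPM at 2991 and 2985.5 UMIs.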

How the results depend on the processing

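No paired analysis was possible because each genotype has 1 library. Ratios between cell groups were taken for 8 members and their sum in each library. All 18 of vascular over neural and all 18 of immune over neural kept their sign in every alternative that gave a ratio. So did 19 of 27 ratios of cKO over WT. Ratios here are log2 values. The 8 that did not were 6 of 9 in vascular cells and H2-K1 and Tap1 in immune cells. An alternative that left a member with 0 UMIs on 1 side gave no ratio and was not scored. Under the stricter filter this held for Tap1, Psmb8 and Psmb9 in cKO vascular cells. It also held there for Tap1 and Psmb9 in immune cells of both libraries. For immune H2-K1 the sign turned with the stricter cell filter alone, to -0.60, from 4 WT and 3 cKO cells. The cause of the other moves was not tested. For the sum of the members, the stricter filter (8 cKO vascular cells) gave a vascular ratio of cKO over WT of -0.40, vascular over neural ratios of 2.97 in WT and 2.37 in cKO, immune over neural ratios of 3.73 and 3.8, and neural shares of cells with any member of 12% and 14.1%. With 2 of 6 markers the immune cKO over WT ratio was 0.65, and the cKO immune over neural ratio was 4.76, against 4.43 with 4 of 6 markers and 4.39 with cells of several groups placed. Without mitochondrial, ribosomal protein and haemoglobin genes WT immune over neural was 4.46, and with TMM factors 4.57. TMM factors gave 0.39 for the neural cKO over WT sum. The mean of each cell's CPM gave 0.22 for it, -0.26 for the vascular sum and 2.84 for cKO vascular over neural. Shares of cells with any member followed the depth by construction. Thinned to 2000 UMIs they were 16% and 18.5% in neural, 80.0% and 78.2% in vascular and 97.6% in WT immune cells, and unthinned 44.8% and 53.7%, 94.9% and 93.4%, and 100% in both immune groups. Depth limited Tap1, Psmb8 and Psmb9, with under 70 UMIs in each group and library.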
